A study of Mus musculus with 12 samples.

Results

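Matricellular proteins are secreted into the extracellular matrix, where they regulate how cells attach and respond to growth factors more than they bear load. The 9 genes described here encode thrombospondins 1, 2 and 3 (Thbs1, Thbs2, Thbs3), the fasciclin-domain proteins periostin and transforming growth factor beta-induced protein (Postn, Tgfbi), tenascin C (Tnc), osteopontin (Spp1), osteonectin (Sparc) and fibronectin (Fn1). They were chosen by name, as proteins of the matrix laid down after injury, with earlier results of these data known. Counts of these genes set beside all genes are therefore not independent of the data. All 9 were found by exact gene symbol among the 21936 genes listed in the files. Poly(A) RNA of skeletal muscle was compared between PTRF knockout mice, labelled as having muscular dystrophy, and wild-type mice labelled normal, all of strain C57BL/6N and 3 months old. PTRF is the caveolar coat protein cavin 1, encoded by Cavin1. The labels give no allele or Cre driver for the knockout, so whether the deletion reached every cell type is not known from them. The labels list 12 samples, soleus and quadriceps with 3 per genotype, but each quadriceps sample held the same values as the soleus sample of the same genotype and number (largest difference 0 TPM). The data were therefore 6 distinct libraries, 3 knockout and 3 wild type, read from the soleus samples and named here knockout 1 to 3 and wild type 1 to 3. Which of the muscles they came from could not be settled.

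Fibronectin is part of the provisional matrix that forms in a wound. Periostin, tenascin C and TGF-beta-induced protein join it as fibroblasts become active, and all of these bind integrins. TGF-beta, which thrombospondin 1 can release from its latent complex, is a known inducer of several of these genes in fibroblasts. Osteonectin binds collagen and helps its fibrils to form, and osteopontin is a cytokine-like ligand of integrins and CD44 that macrophages make in injured muscle.

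The libraries were checked before the members were read. Values were taken as TPM, a length-normalised share of the transcripts in a library, although no label names the unit. They totalled 848224 to 872482 in knockout libraries and 843194 to 849159 in wild-type libraries. Sequencing depth is unknown. Cavin1 was at 0.284, 0.0905 and 0.0254 TPM in knockout libraries against 45.2, 40.0 and 42.2 TPM in wild-type libraries, which follows the labels. Myh7, the slow myosin heavy chain, was at 2196 to 3291 TPM in knockout and 1702 to 2703 TPM in wild-type libraries, so slow fibres were represented in every library. Myh4, the type 2B myosin, was at 238, 580.1 and 346 TPM in knockout libraries 1, 2 and 3 against 6.43, 193.5 and 4.21 TPM in wild-type libraries 1, 2 and 3. Wild type 2 stood apart from the other two wild-type libraries in this gene, and was also the highest of them in the fast-fibre genes Actn3, Pvalb and Myh1. Of 11056 genes tested (limma on log2(TPM + 1), Benjamini-Hochberg adjusted p under 0.05), 36.3% were higher and 2.92% lower in the knockout, 39.2% in either direction. The log2 fold change at the median over these genes was 0.33. Trimmed-mean rescaling of the libraries moved that median to -0.02, with 13.8% higher and 14.4% lower. Member changes are therefore also given relative to the 0.33. The labels do not say that numbered samples came from separate animals, so p-values measure only how far these samples spread, and that spread may be technical.

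All 9 genes passed the filter of 1 TPM in 3 libraries. Tnc did so through the knockout libraries alone, so being higher was a condition for testing it. Of the 9, 7 were higher in the knockout, none was lower and 2 did not pass, beside 36.3% of all genes tested as higher. Knockout and wild-type values did not overlap for the same 7, where 53.6% of all genes tested had groups that did not overlap, 48.7% higher and 4.83% lower. The median log2 fold change of the 9 was 0.95 with the deposited values. Rescaled by the trimmed mean, 4 of the 9 were higher, beside 13.8% of all genes, and their median was 0.54, and without wild type 2 and knockout 1 together 4 of the 7 members then tested were higher, beside 16.0% of all genes. Postn, Tgfbi, Tnc and Fn1 passed under every alternative in which they could be tested.

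**Figure D1:**
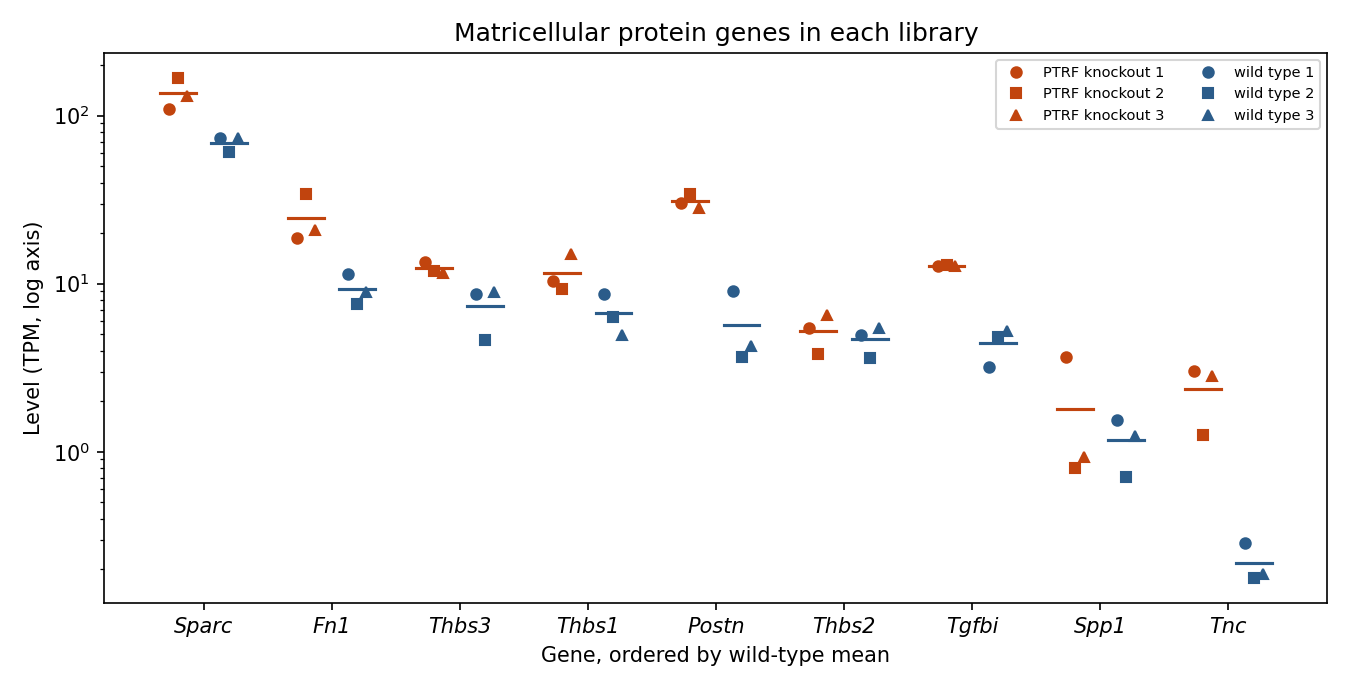
Level of each gene in TPM (log axis) in the 3 knockout libraries (red-brown, left of each gene) and the 3 wild-type libraries (blue, right); symbols mark the library number and lines the group means. The groups are apart for every gene except Thbs2 and Spp1, and the Postn libraries lie at 28.4 to 34.1 TPM in knockout against 3.64 to 8.99 TPM in wild type.

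Promoter windows are shown for genes that rose under every alternative in which they could be tested, and for those that did not pass. Each window is the 250 bases before the RefSeq transcript start nearest to the annotated gene start, in build GRCm38.p6. Of the 9 genes, 7 have an entry in the promoter table, and Thbs1 and Fn1 are not in it. Postn, Tnc and Tgfbi represent the genes that rose, and Thbs2 and Spp1 those that did not pass. Capitals mark matches, on either strand, to 5 searched motifs, the AP-1 site (TGANTCA), the TEAD site (CATTCC), the RUNX site (TGTGGT), the GC box (GGGCGG) and the TATA box (TATAAA), none of which contains another. Sequences are written 5′ to 3′ along the gene's own strand.
Postn, chr3:54360857-54361106, plus strand: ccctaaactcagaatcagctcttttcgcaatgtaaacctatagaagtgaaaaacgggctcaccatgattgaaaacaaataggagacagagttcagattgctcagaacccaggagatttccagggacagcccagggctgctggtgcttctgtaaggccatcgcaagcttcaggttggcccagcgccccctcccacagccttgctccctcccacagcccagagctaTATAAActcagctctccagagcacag
Tnc, chr4:64047016-64047265, minus strand: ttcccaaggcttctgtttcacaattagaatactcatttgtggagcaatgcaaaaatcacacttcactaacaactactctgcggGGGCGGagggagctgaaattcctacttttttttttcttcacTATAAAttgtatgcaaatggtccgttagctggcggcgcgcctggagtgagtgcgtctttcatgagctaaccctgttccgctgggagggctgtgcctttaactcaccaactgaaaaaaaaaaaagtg
Tgfbi, chr13:56609336-56609585, plus strand: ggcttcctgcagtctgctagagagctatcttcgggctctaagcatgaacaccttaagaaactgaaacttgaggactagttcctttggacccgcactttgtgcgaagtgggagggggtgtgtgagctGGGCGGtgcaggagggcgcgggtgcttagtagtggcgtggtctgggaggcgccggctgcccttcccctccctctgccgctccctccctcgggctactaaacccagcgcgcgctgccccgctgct
Thbs2, chr17:14694263-14694512, minus strand: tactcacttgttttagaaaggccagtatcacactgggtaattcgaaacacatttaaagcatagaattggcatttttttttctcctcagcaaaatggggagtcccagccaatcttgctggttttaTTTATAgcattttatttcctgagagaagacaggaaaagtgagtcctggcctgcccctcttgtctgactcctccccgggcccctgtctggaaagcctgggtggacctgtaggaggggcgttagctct
Spp1, chr5:104434861-104435110, plus strand: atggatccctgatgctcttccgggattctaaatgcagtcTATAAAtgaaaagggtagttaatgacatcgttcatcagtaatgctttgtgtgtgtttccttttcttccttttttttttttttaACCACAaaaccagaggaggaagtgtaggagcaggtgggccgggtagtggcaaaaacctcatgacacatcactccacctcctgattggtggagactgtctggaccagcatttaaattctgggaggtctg

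The letters TATAAA or their complement were in 4 of the 7 windows, those of Postn, Tnc, Thbs2 and Spp1, against 12.4% of the 32851 windows of the table. Counted from the transcript start, they began at position -26 in Postn, -126 in Tnc and Thbs2, and -211 in Spp1. The motif was thus in windows of genes that rose and of genes that did not pass. GGGCGG was in 3 of the 7, Thbs3, Tgfbi and Tnc, against 32.7% of all windows, and TGTGGT in 1 of the 7, Spp1, against 14.0%. TGANTCA and CATTCC were in none of the 7, against 6.75% and 12.6% of all windows. These are matches of letters in a short window and describe no binding.

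The fasciclin-domain genes were each higher in the knockout. Postn (ENSMUSG00000027750, chromosome 3, 54361109 to 54391037 in GRCm38, plus strand) encodes periostin, which helps to cross-link collagen. It stood at 30.2, 34.1 and 28.4 TPM in knockout libraries 1, 2 and 3, against 8.99, 3.64 and 4.28 TPM in wild-type libraries 1, 2 and 3. The lowest knockout library was more than every wild-type library, and wild type 1 was the highest of its group. The mean was 30.9 ± 2.91 TPM in knockout and 5.64 ± 2.92 TPM in wild type (SD, n = 3 each), a ratio of means of 5.48. On the log2(TPM + 1) scale it rose by 2.35 (SE 0.24, limma adjusted p = 3.78e-05), or 2.02 above the median of all genes, and 99.5% of the genes tested had a smaller one. Over the alternatives the log2 fold change ran from 1.78 to 2.68.

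Tgfbi (ENSMUSG00000035493, chromosome 13, 56609523 to 56639562, plus strand) encodes a secreted protein named for its induction by TGF-beta. It stood at 12.7, 12.9 and 12.8 TPM in knockout libraries 1, 2 and 3, against 3.20, 4.84 and 5.23 TPM in wild-type libraries 1, 2 and 3. The knockout libraries were nearly equal, with a coefficient of variation of 0.658%, the least of the 9 genes in that group, against 24.4% among the wild-type libraries. Tgfbi rose by 1.37 on the log2(TPM + 1) scale (SE 0.17, adjusted p = 0.00011, limma), 1.04 above the median of all genes.

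Tnc (ENSMUSG00000028364, chromosome 4, 63959785 to 64047015, minus strand) encodes tenascin C, which is scarce in resting adult muscle and returns during repair and at tendon junctions. It stood at 3.02, 1.25 and 2.83 TPM in knockout libraries 1, 2 and 3, against 0.288, 0.178 and 0.187 TPM in wild-type libraries 1, 2 and 3. Every knockout library was above every wild-type library, and knockout 2 was the lowest of its group. The mean level was 2.37 ± 0.971 TPM in knockout and 0.218 ± 0.0609 TPM in wild type (SD, n = 3 each), a ratio of means of 10.9, the largest of the 9 genes. The log2 fold change on the log2(TPM + 1) scale was 1.42 (SE 0.20, limma adjusted p = 0.000271), 1.10 above the median of all genes. It depended on the pseudocount, with 2.88 at a pseudocount of 0.1 and 0.49 at 5, and passed at both. With any knockout library left out, Tnc no longer met the filter and was not tested.

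Fn1 (ENSMUSG00000026193, chromosome 1, 71585520 to 71653200, minus strand) encodes fibronectin, which links cells to the provisional matrix through integrins. It stood at 18.7, 34.3 and 20.998 TPM in knockout libraries 1, 2 and 3, against 11.3, 7.61 and 8.90 TPM in wild-type libraries 1, 2 and 3. The groups were apart, and knockout 2 was well above the other knockout libraries. Fn1 rose by 1.29 on that scale (SE 0.22, limma adjusted p = 0.00101), 0.96 above the median of all genes, and 0.90 after trimmed-mean rescaling (adjusted p = 0.0306). The files give 1 value per gene, so splice forms of fibronectin were not told apart.

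Sparc (ENSMUSG00000018593, chromosome 11, 55394500 to 55423183, minus strand) encodes osteonectin and had the highest level of the 9 genes in every library. It stood at 109.6, 168 and 131 TPM in knockout libraries 1, 2 and 3, against 73.3, 60.9 and 73.3 TPM in wild-type libraries 1, 2 and 3. All knockout values were above all wild-type values. Sparc rose by 0.95 on the log2 scale (SE 0.18, limma adjusted p = 0.00171), 0.62 above the median of all genes. After trimmed-mean rescaling it was 0.54 and no longer passed (adjusted p = 0.0625, range 0.000278 to 0.0625 over the alternatives).

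The thrombospondin genes had log2 fold changes of 0.13 to 0.72. Thbs1 (ENSMUSG00000040152, chromosome 2, 118111876 to 118127133, plus strand), whose product can activate latent TGF-beta, stood at 10.4, 9.31 and 14.96 TPM in knockout libraries 1, 2 and 3, against 8.68, 6.33 and 4.94 TPM in wild-type libraries 1, 2 and 3. The groups were apart by a narrow margin, between knockout 2 and wild type 1. Its log2 fold change was 0.72 (SE 0.21, limma adjusted p = 0.0193), 0.39 above the median of all genes. It passed under 7 of 15 alternatives. The call was lost after trimmed-mean rescaling (adjusted p = 0.313), after quantile normalization (0.33), on the scale of nuclear genes only (0.12) and without a filter (0.0736). It was also lost without knockout 3 (0.0749), without wild type 2 (0.0522), without wild type 3 (0.0696) and without wild type 2 and knockout 1 together (0.065), by adjusted p, which ran from 0.00684 to 0.33.

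Thbs3 (ENSMUSG00000028047, chromosome 3, 89215180 to 89226837, plus strand) belongs to the thrombospondin subgroup that also holds thrombospondin 4 and COMP. It stood at 13.5, 12.0 and 11.6 TPM in knockout libraries 1, 2 and 3, against 8.64, 4.59 and 8.87 TPM in wild-type libraries 1, 2 and 3. The groups did not overlap, and wild type 2 was the lowest library. The log2 fold change was 0.72 (SE 0.21, limma adjusted p = 0.0186), 0.39 above the median of all genes, and 0.45 without wild type 2 (adjusted p = 0.0689). Thbs3 also lost its call without knockout 1 (0.0623), without both of these (0.137), after trimmed-mean rescaling (0.201), after quantile normalization (0.197), on the scale of nuclear genes only (0.0688) and without a filter (0.071), by adjusted p. Its exons share 318 bases with Mtx1 on the opposite strand, a mitochondrial import gene at 31.5 to 32.2 TPM in knockout and 25.1 to 38.6 TPM in wild type. No source used here says that strand was used in counting, so reads there may have been divided between the pair.

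Thbs2 (ENSMUSG00000023885, chromosome 17, 14665500 to 14694235, minus strand) encodes thrombospondin 2, an inhibitor of blood vessel growth. It stood at 5.44, 3.84 and 6.47 TPM in knockout libraries 1, 2 and 3, against 4.93, 3.60 and 5.48 TPM in wild-type libraries 1, 2 and 3. The groups overlapped, and library 2 was the lowest in both. The log2 fold change was 0.13 with a 95% interval of -0.28 to 0.55 (limma adjusted p = 0.583), and -0.19 relative to the median of all genes. Its sign turned with the scale, to -0.21 after trimmed-mean rescaling and -0.28 after quantile normalization, and Thbs2 passed under none of 15 alternatives. The difference between the changes of Thbs1 and Thbs2 was not tested.

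Spp1 (ENSMUSG00000029304, chromosome 5, 104435118 to 104441050, plus strand), the osteopontin gene, stood at 3.65, 0.798 and 0.926 TPM in knockout libraries 1, 2 and 3, against 1.55, 0.708 and 1.24 TPM in wild-type libraries 1, 2 and 3. Knockout 1 was above all other libraries, and the other knockout libraries lay within the wild-type range. The coefficient of variation was 89.9% in knockout and 36.7% in wild type. The log2 fold change was 0.24 with a 95% interval of -0.42 to 0.90 (adjusted p = 0.53, limma), and -0.09 relative to the median of all genes. This was the widest interval of the 9. Macrophage markers, given below, were higher in all 3 knockout libraries.

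**Figure D2:**
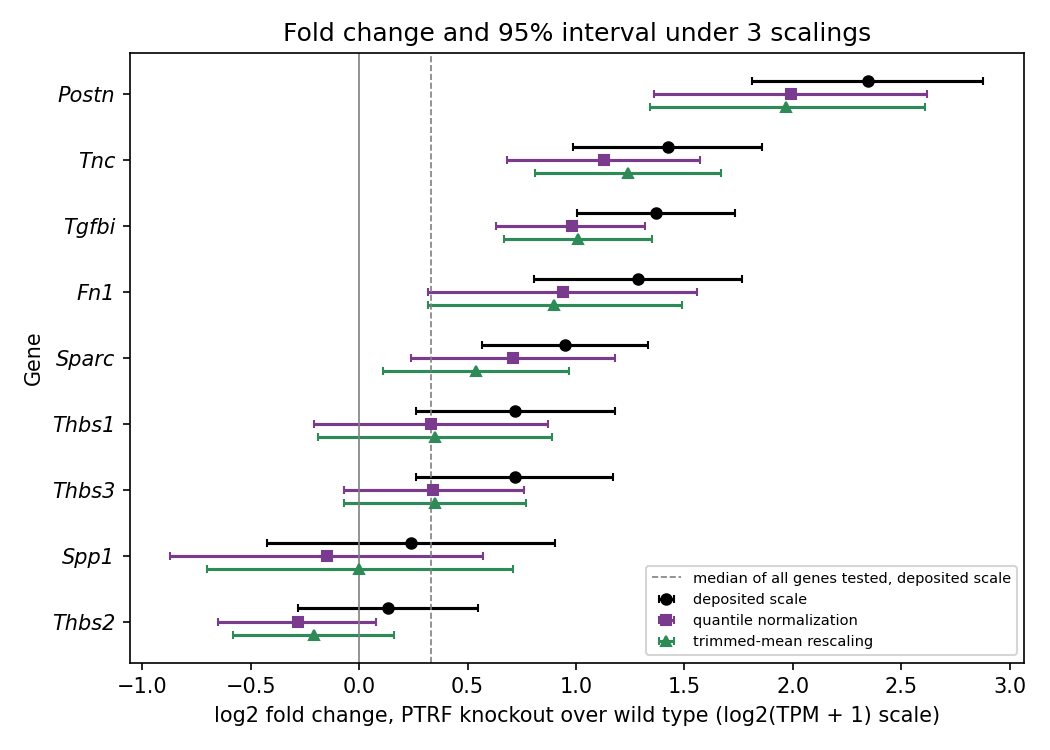
Log2 fold change of each gene, knockout over wild type, with its 95% interval from limma on the log2(TPM + 1) scale, for the deposited values, after quantile normalization and after trimmed-mean rescaling; the dashed line is the median of all genes tested on the deposited scale, 0.33. The intervals of Postn, Tnc, Tgfbi, Fn1 and Sparc stay above 0 under all of them, although Sparc did not pass after trimmed-mean rescaling. Those of Thbs1 and Thbs3 reach 0 after either rescaling, and those of Spp1 and Thbs2 include 0 throughout.

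If the values are TPM, they are divided by transcript length, and levels can be compared between genes. The unit is not named by the labels. Without length scaling, the order and shares given here would also follow transcript length. The summed level of the 9 genes was 238 ± 35.0 TPM in knockout libraries and 109 ± 14.7 TPM in wild-type libraries (SD, n = 3 each). In the knockout the order of mean levels was Sparc, Postn, Fn1, Tgfbi, Thbs3, Thbs1, Thbs2, Tnc and Spp1. In wild type it was Sparc, Fn1, Thbs3, Thbs1, Postn, Thbs2, Tgfbi, Spp1 and Tnc. Postn thus had rank 2 in the knockout and rank 5 in wild type, and Tgfbi rank 4 in the knockout and rank 7 in wild type. Neighbours in the order had overlapping ranges in 4 of 8 pairs in the knockout and in 5 of 8 pairs in wild type, where the genes from Fn1 to Tgfbi formed an unbroken run of overlaps.

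Shares of that sum do not depend on the scale of a library. Postn took 14.6, 12.3 and 12.3% of it in knockout libraries 1, 2 and 3, against 7.44, 3.94 and 3.81% in wild-type libraries 1, 2 and 3. Every knockout share of Postn was above every wild-type share. Tnc took 1.05 ± 0.527% in knockout and 0.199 ± 0.0362% in wild type (SD, n = 3 each), also without overlap. Thbs2 took 2.28 ± 0.772% in knockout and 4.28 ± 0.522% in wild type, also without overlap. Its own level on the deposited scale was 5.25 ± 1.32 TPM in knockout and 4.67 ± 0.967 TPM in wild type. The Thbs2 log2 fold change was -0.21 after trimmed-mean rescaling and -0.28 after quantile normalization, so the direction of its own level depends on the scale. Sparc took 56.9 ± 3.90% in knockout and 63.9 ± 2.87% in wild type, with overlap between knockout 2 and wild type 1. Shares of the remaining genes overlapped between the groups. These shares are given as values, with no test.

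**Figure D3:**
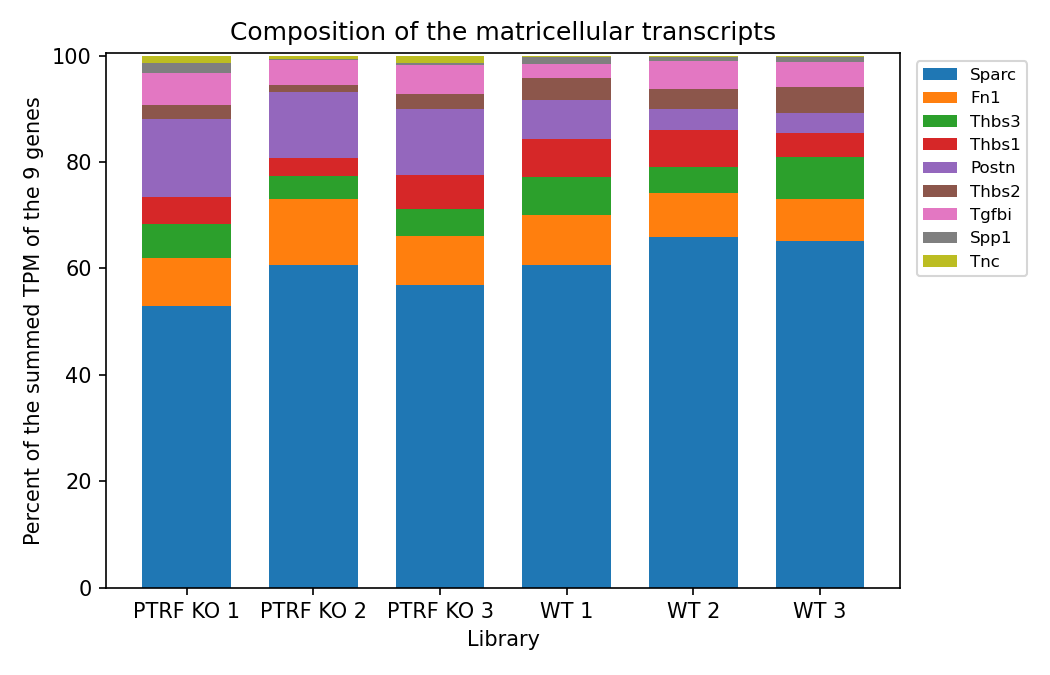
Share of each gene in the summed TPM of the 9 genes (vertical axis, percent) in each library, knockout libraries on the left. Sparc is the largest share in every library, and the Postn share is 12.3 to 14.6% in knockout libraries and 3.81 to 7.44% in wild-type libraries.

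The members did not share one pattern among the libraries of a group. Knockout 2 was the highest knockout library for 4 of the 9 genes (Postn, Tgfbi, Sparc and Fn1) and the lowest for another 4 (Thbs1, Thbs2, Tnc and Spp1). For Tgfbi the knockout libraries were nearly equal, at 12.7 to 12.9 TPM, so its order among them carries little weight. Knockout 2 was also highest in the fibrillar collagens Col1a1 (24.1 TPM, against 14.9 and 17.5 TPM in knockout 1 and 3) and Col3a1 (156 TPM, against 79.97 and 74.97 TPM). It held the lowest knockout sum of satellite cell and regenerating fibre markers, 28.3 TPM, against 49.7 and 44.2 TPM in knockout 1 and 3. Wild type 2 was the lowest wild-type library for 7 of the 9 genes. The part of these library differences in the results was not tested.

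Likeness of pattern was measured as the root mean squared difference between 2 genes over the 6 libraries, after each gene's log2(TPM + 1) values were centred and scaled to 1 SD. Among the members the most alike pair was Sparc and Fn1, at 0.146 SD, and the least alike Spp1 and Sparc, at 1.28 SD. Of all genes tested, those nearest to Postn were Stk10 (0.0532 SD), Elmo1 (0.0562 SD) and Mill2 (0.0697 SD). Those nearest to Sparc were Armcx2 (0.0686 SD), Cd248 (0.0688 SD) and 1500011B03Rik (0.0742 SD). Stk10 and Armcx2 were tested through the knockout libraries alone, so being higher was a condition for testing them. Both lay near the filter, Stk10 at 1.20 to 1.25 TPM in knockout and 0.591 to 0.791 TPM in wild type. Armcx2 was at 1.43 to 1.95 TPM in knockout and 0.803 to 0.931 TPM in wild type. Such a distance describes likeness over these 6 libraries and nothing more.

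Other matricellular genes divided in the same way into some that rose and some that did not pass. Of 14 listed genes 10 were tested, and 6 were higher and none lower (median log2 fold change 0.85, against 0.33 for all genes). After trimmed-mean rescaling 5 were higher. Among all genes tested 36.3% were higher and 2.92% lower, or 13.8% and 14.4% after that rescaling. The counts of this and the later lists stand beside those shares. Thbs4, a thrombospondin of muscle and tendon, rose to 93.2, 88.4 and 130.01 TPM in knockout libraries, against 26.1, 20.99 and 17.8 TPM in wild-type libraries (log2 fold change 2.21, limma adjusted p = 1.01e-05). Ccn5 rose by 1.94 and Smoc2, a relative of Sparc, by 1.48 on the log2 scale, and Ccn5 was tested through the knockout libraries alone. Comp, Ccn1, Ccn2 and Ccn3 did not pass.

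Receptors of these proteins were mixed. Of 17 listed receptors 13 were tested, and 8 were higher and 1 lower, with a median log2 fold change of 0.68. One of the 8, Sdc1 (log2 fold change 0.41), was tested through the knockout libraries alone. After trimmed-mean rescaling 5 were higher and 2 lower. Itga5, the alpha subunit of the main fibronectin receptor, stood at 17.5, 16.7 and 28.0 TPM in knockout libraries, against 3.999, 4.58 and 5.14 TPM in wild-type libraries (log2 fold change 1.93, limma adjusted p = 2.88e-05). Cd44, a receptor of osteopontin and hyaluronan, rose by 1.32, and Lrp1, an endocytic receptor that clears thrombospondins, by 1.17 on the log2 scale. Sdc4, a heparan sulphate co-receptor for fibronectin, fell to 25.8 ± 1.36 TPM in knockout, against 38.03 ± 4.19 TPM in wild type (SD, n = 3 each; log2 fold change -0.54, limma adjusted p = 0.0125). Sdc4 was named after its values were seen, as the single receptor that passed as lower on the deposited scale. Cd36 was also lower there without passing, at 476.7 TPM in knockout and 602.8 TPM in wild type (log2 fold change -0.34, limma adjusted p = 0.114). After trimmed-mean rescaling Cd36 passed as lower (-0.75, limma adjusted p = 0.00197).

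In the TGF-beta list 14 of 16 tested genes were higher and none lower (median 0.78), and 7 of 16 after trimmed-mean rescaling (median 0.41). The ligand Tgfb1 stood at 8.57, 6.73 and 9.45 TPM in knockout libraries, against 2.64, 1.60 and 2.57 TPM in wild-type libraries (log2 fold change 1.51, limma adjusted p = 8.28e-05). The receptor Tgfbr2 rose by 0.88 and the latent TGF-beta binding protein Ltbp1 by 1.05 on the log2 scale. All 15 genes of collagens and their processing were higher with a median of 1.29, and 14 of 15 after trimmed-mean rescaling. Col3a1 rose by 2.17, Col5a2 by 1.44 and Col5a1 by 1.42 on the log2 scale. Of 14 matrix protease and inhibitor genes the 10 tested were all higher (median 0.79), and 6 after trimmed-mean rescaling. They included the inhibitors Timp1, which was tested through the knockout libraries alone (log2 fold change 2.5), and Timp2 (1.23), and the membrane-bound protease Mmp14 (1.33).

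**Figure D4:**
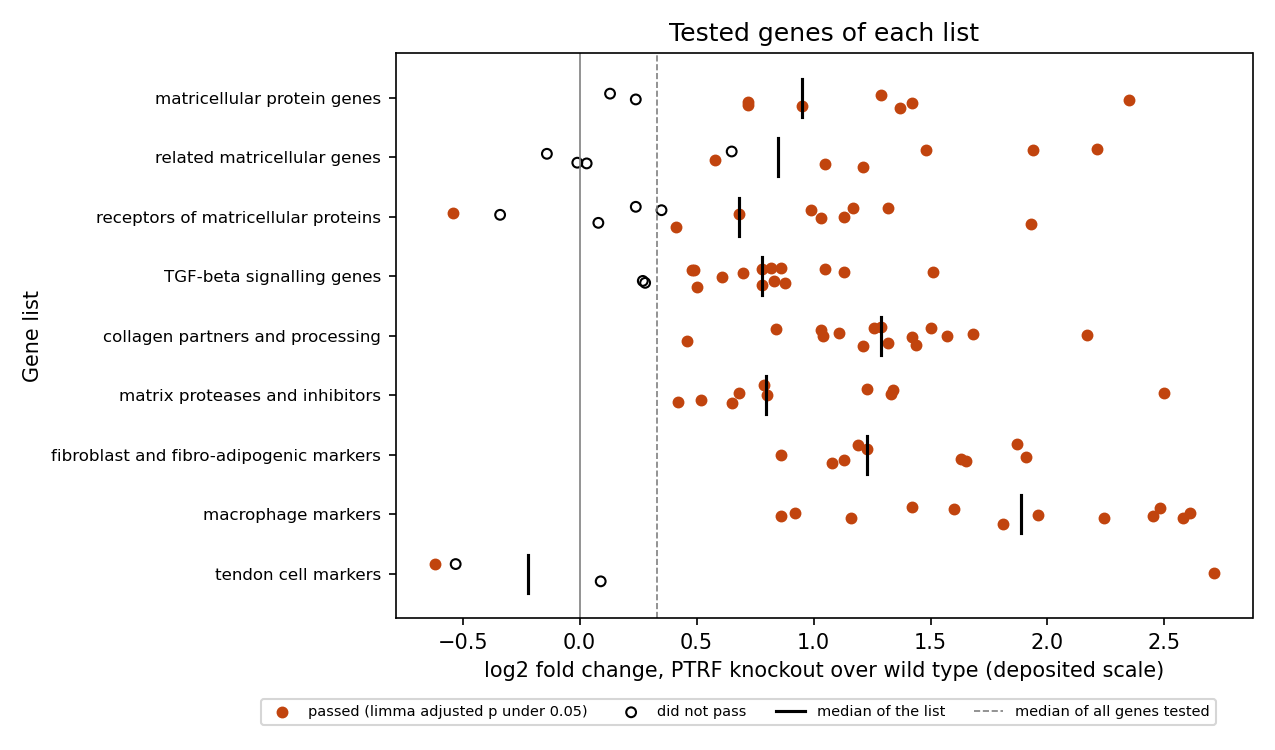
Log2 fold change, knockout over wild type on the deposited scale (horizontal axis), of each tested gene in the 9 matricellular genes and in 8 other lists; filled points passed, open points did not, short lines are list medians and the dashed line is the median of all genes tested, 0.33. The 9 genes spread from 0.13 to 2.35, and the medians of the collagen and macrophage lists lie at 1.29 and 1.89.

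Markers of fibroblasts and macrophages, which can make several of these proteins, were higher in the knockout as well. In bulk muscle more cells of a type and more RNA per cell cannot be told apart. All 9 fibroblast and fibro-adipogenic markers were higher (8 after trimmed-mean rescaling), and their summed level was 1074 to 1239 TPM in knockout and 414 to 452 TPM in wild type. Ly6a rose by 1.91, Mfap5 by 1.87 and Cd34 by 1.65 on the log2 scale. All 12 tested macrophage markers of 14 were higher (11 of 11 after trimmed-mean rescaling), with sums of 188 to 231 TPM in knockout and 36.4 to 44.95 TPM in wild type. Adgre1, Cd14 and Itgam were tested through the knockout libraries alone, so that being higher was a condition for testing them. Among them Ctss rose by 2.48, Tyrobp by 2.24 and C1qa by 2.61, and Fcgr1, which was not tested, had no entry in 1 wild-type library and was set to 0 there. The part of these cell types in the member results was not tested.

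Of 8 endothelial markers 7 were higher and 1 lower (6 and 1 after trimmed-mean rescaling), with sums of 184 to 209.97 TPM in knockout and 90.7 to 100.9 TPM in wild type. Pecam1, Emcn and Tie1 rose by 1.47, 1.18 and 1.17 on the log2 scale, and Kdr, named after its values were seen, fell by 1.00. The median log2 fold change of 8 smooth muscle and pericyte markers was 0.32, against 0.33 for all genes. Their sums were 215 to 229 TPM in knockout and 174 to 184 TPM in wild type. Of these markers 3 were higher (2 after trimmed-mean rescaling), near the share of 36.3% among all genes tested. They were Cspg4 (1.28), Mcam (1.12) and Pdgfrb (0.58), of which Pdgfrb lost its call after trimmed-mean rescaling (adjusted p = 0.22). Of 6 tested satellite cell and regenerating fibre markers 4 were higher (3 after trimmed-mean rescaling), with sums of 28.3 to 49.7 TPM in knockout and 10.8 to 17.1 TPM in wild type. The myogenic factors Myod1 and Myog rose by 2.21 and 1.63, and the embryonic myosin Myh3 by 1.35.

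Among 4 tested tendon cell markers 1 was higher and 1 lower, with sums of 50.6 to 78.04 TPM in knockout and 32.3 to 56.7 TPM in wild type, which overlap. Scx, a tendon transcription factor, rose by 2.71 on the log2 scale, and Chad fell by 0.62 (adjusted p = 0.0492, 0.0198 to 0.2 over the alternatives). Without wild type 1 the Chad log2 fold change was -0.33 (limma adjusted p = 0.2). No Schwann cell marker of 4 tested passed (2 were lower after trimmed-mean rescaling). Pmp22 was at 33.03 ± 4.85 TPM in knockout and 24.6 ± 3.37 TPM in wild type (SD, n = 3 each). None of 9 slow fibre markers passed (4 lower after trimmed-mean rescaling), with Myl2 at 5226 ± 627 TPM in knockout and 5802 ± 1399 TPM in wild type (n = 3 each). Of 10 fast fibre markers 2 were higher, Myh4 and Actn3 (1 after trimmed-mean rescaling). The log2 fold change of Myh4 was 4.22 (adjusted p = 0.00748, 4.39e-07 to 0.0671 over the alternatives) and that of Actn3 1.82 (adjusted p = 0.035, 9.32e-05 to 0.193), both by limma. Actn3 was at 104 TPM in wild type 2, against 9.67 and 22.8 TPM in wild type 1 and 3, and its log2 fold change was 2.72 without wild type 2 and 1.08 without wild type 1 (adjusted p = 0.0827).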

How the data were processed

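Poly(A) RNA was sequenced from samples labelled soleus or quadriceps. Per the labels' protocols, TRIzol was used for isolation and a NEBNext Ultra kit for the libraries. The submitters' processing notes name STAR 2.5.3a, kallisto 0.43.0, GRCm38 and mm10, without saying at which step. The unit of the deposited values, TPM, was inferred from their size and totals, since no label or file header names it. The totals differed between libraries and were below the fixed sum of a complete TPM set, so they do not settle the unit. Another length-scaled unit would change levels by a factor per library. A unit without length scaling would also change how genes compare with each other. TPM is a share, so abundant transcripts such as the mitochondrial ones (42.3 ± 3.33% of the total in knockout, 48.8 ± 5.06% in wild type, n = 3 each) move all other values. Depth is not kept, so no counting interval is given.

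The files of samples that share genotype and number held equal values and were counted once. Genes absent from a file were set to 0. A gene was tested if 3 or more libraries held 1 TPM or more. Testing used limma 3.58.1 (R 4.3.3) with its trend option, on log2(TPM + 1), and p-values were adjusted by Benjamini and Hochberg's method over all 11056 genes, with a threshold of 0.05. The test was tried on simulated data first. As alternatives, the trend was dropped, values were quantile normalized, rescaled by a trimmed mean (30% of ratios and 5% of levels trimmed) or scaled to nuclear genes only, the filter was dropped or set at 10 TPM, the pseudocount was set to 0.1 or 5, and fits were made with the replicate number as a block, with each library left out, and without wild type 2 and knockout 1 together. Named genes were the 9 members, Cavin1, Myh7, Myh4, the 3 passing genes of each list with the smallest adjusted p (or the highest gene where none passed) and the 3 nearest patterns of the member with the largest log2 fold change on the log2(TPM + 1) scale, Postn, and of the one with the highest level, Sparc. Other list genes named in the text, such as Col1a1, Comp and Sdc1, were chosen after their values were seen. The members and lists were chosen with earlier results of these data known. Positions are from GENCODE release M21, and promoter sequences from RefSeq. Python 3.11.15 with numpy 2.4.6, pandas 2.3.3 and matplotlib 3.10.9 did the rest.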

Additional observations from a re-analysis of the deposited data

How the results depend on the processing

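The count of higher genes over all genes tested, 4016, was 1403 under quantile normalization, 1516 under trimmed-mean rescaling, 1616 at the 10 TPM filter and 1673 without wild type 2 and knockout 1 together. The count of lower genes, 323, was 1449, 1582 and 777 after quantile normalization, trimmed-mean rescaling and on the nuclear-only scale, and 213 without wild type 2 and knockout 1 together. Of all calls 92.6% were higher in the deposited values, 48.9% under trimmed-mean rescaling and 49.2% under quantile normalization. With 1 library left out there were 2379 to 4150 higher genes and 219 to 346 lower ones. The member count of 7 was 4 after trimmed-mean rescaling and 4 without wild type 2 and knockout 1 together, and 5 to 7 with 1 library left out. It was 5 after quantile normalization, on the nuclear-only scale and without a filter, and 5 of 5 tested at the 10 TPM filter. Over all lists, 91 genes were higher and 3 lower, with 51 and 1 under the 10 TPM filter, where fewer genes were tested, and 8 lower after quantile normalization and 10 lower after trimmed-mean rescaling. The Thbs2 log2 fold change turned to -0.28 (quantile normalization), -0.21 (trimmed-mean rescaling), -0.04 (nuclear-only scale), -0.04 (without wild type 2 and knockout 1), and ran from -0.01 (without knockout 3 or wild type 2) to 0.30 with 1 library left out. Spp1 turned to -0.15 after quantile normalization, Myh7 to -0.01 after trimmed-mean rescaling and Myl2 to 0.05 without wild type 3 (-0.29 to 0.05 with 1 library left out); none of these passed. Except where fewer genes or samples entered, the cause was not tested. Cavin1 passed under all 12 alternatives in which it was tested. Over all genes tested, same-numbered samples did not deviate together (correlations 0.0283, -0.00808 and 0.0369 for numbers 1, 2 and 3). Differently numbered ones had correlations of -0.135 to 0.0984. Single genes such as Myh4 and Actn3 were highest in library 2 of both groups. Correlations over all genes cannot decide whether the numbers pair the samples. With the replicate number as a block 4047 genes were higher and 326 lower, with 7 members higher and the Cavin1 log2 fold change at -5.27.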
